A study of Mus musculus with 6 samples.

Results

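The 10 genes described here make, break down or sense prostanoids in mouse macrophages: Ptgs1, Ptgs2, Ptges, Ptgis, Tbxas1, Hpgds, Hpgd, Ptger2, Ptger4 and Ptgir. They were taken by name, as the non-control probes whose gene name in the array files is one of these symbols, which gave 12 of 55681 probes and 10 of 36163 gene names. Ptges and Hpgd had 2 probes each, and the single Ptgs2 probe was printed in 10 spots. All 10 genes passed the filter on dim probes, Ptgis through the ADP arrays alone.

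The cells were bone marrow-derived macrophages of C57BL/6 mice, cultured with L929-conditioned medium as the source of M-CSF, a cytokine that drives marrow cells towards macrophages. In the ADP group they received 100 µM of extracellular ADP, which damaged cells and activated platelets release, for 6 h. The other group had a control treatment of 6 h whose content the labels do not give. The treatment text is the same for all 6 samples and describes ADP alone, and the groups follow the titles and treatment labels. There were 3 samples a group, from experiments that the submitters call independent and made with different donors, and RNA of each went on 1 one-colour array. The age and sex of the mice were not given in the sources used here, and an ADP and a control replicate of the same number are not said to share a donor.

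Prostanoids are lipid signals made from arachidonic acid. Cyclooxygenases turn it into prostaglandin H2, and terminal synthases then turn prostaglandin H2 into prostaglandin E2, prostaglandin D2, prostacyclin or thromboxane. For prostaglandin E2 the signal ends when the lipid is taken up and oxidised by 15-hydroxyprostaglandin dehydrogenase, the product of Hpgd. In macrophages the inducible cyclooxygenase Ptgs2 and the prostaglandin E2 synthase Ptges are known to be raised by inflammatory stimuli, and the receptors EP2 (Ptger2), EP4 (Ptger4) and IP (Ptgir) signal through Gs and cyclic AMP.

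Per array, 50.3% to 51.9% of 59305 spots (controls left out) were well above background, and no spot was saturated. The arrays lay on 2 slides, each scanned once: slide 1 held ADP 1 with controls 1 and 2, and slide 2 held ADP 2 and 3 with control 3. The first principal component of all features held 44.9% of the variance and separated the slides, and the second held 31.2% and separated ADP from control arrays. All 8 macrophage markers on the list were measured, with summed signals of 117681% to 160459% of the 75th percentile on ADP arrays and 97404% to 133090% on control arrays. Among them Mertk (-0.61 ± 0.18) lay lower and Cd14 (0.79 ± 0.17) higher under ADP on the log2 scale, both with groups that did not overlap. The groups of Adgre1, Csf1r, Cd68, Itgam, Lyz2 and Fcgr1 overlapped. The median log2 difference of the 8 was 0.28, and it was 0.07 with the slide added to the fit as a block. Signals below are given as a percentage of the 75th percentile of the same array, and a difference is the log2 signal under ADP less that of control, with its standard error (SE) and 3 arrays a group. Signals of different probes are not comparable as amounts of RNA, and the precision is limited by the number of arrays.

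Under ADP, Ptgs2 (inducible cyclooxygenase) was 2.40-fold higher and Hpgd (the degrading dehydrogenase) was 2.48-fold lower. Ptgis (prostacyclin synthase), dim on every array, was at least 2.15-fold higher with the deposited background subtraction. With another background correction (normexp) its log2 difference was 0.40, which is below that bound. The other 7 genes differed by less than 2-fold. No prostanoid gene passed limma's test at an adjusted p under 0.05, and neither did any of the 19574 features tested (0%). At an unadjusted p under 0.05, 3 of the 10 genes stood out, Ptgs2 and Ptgis higher and Hpgd lower, against 12.7% of all features (6.55% higher and 6.18% lower). In the same 3 genes the groups did not overlap, against 19.4% of all features (9.67% higher and 9.72% lower), and the difference was at least 2-fold, against 1.51% (1.17% higher and 0.337% lower). Ptgis could enter the test only as a gene high on the ADP arrays, and of the other 9 genes 2 met each of these rules, Ptgs2 and Hpgd. With the slide as a block, 5 of the 10 had an unadjusted p under 0.05, against 24.3% of all features. Ptgs2 and Ptgis were higher, against 10.8% of all features, and Ptgs1, Tbxas1 and Hpgd were lower, against 13.5%. Of the 9 genes other than Ptgis, 4 met this rule, 1 higher and 3 lower. None of the 10 passed adjustment in that fit, where the smallest adjusted p of any feature was 0.0734. With the slide as a block and trended and robust variances, the same 5 genes passed at an adjusted p under 0.05, against 9.91% of all features. In that fit 2 rose, against 4.52% of all features, and 3 fell, against 5.38%, and of the 9 genes other than Ptgis 1 rose and 3 fell. The number of calls in that fit changed with single arrays. With 1 array left out, 4 of the 10 passed without ADP 1, ADP 2 or control 2, 2 passed without ADP 3, and 0 passed without control 1 or control 3. Over all features, 0 were called without control 1 and 97 without control 3. The differences themselves moved less: without control 1 they were -0.40 for Ptgs1, 1.53 for Ptgs2, 1.35 for Ptgis, -0.54 for Tbxas1 and -1.42 for Hpgd. Without control 3 they were -0.33, 1.12, 1.21, -0.29 and -1.39 in the same order. Control 3 is the only control array on slide 2, so these are the slide 1 differences alone, from ADP 1 and controls 1 and 2. In the fit without a block, the unadjusted p of Ptgs2 was no longer under 0.05 without ADP 1 (difference 1.10) or ADP 3 (difference 1.23), and that of Hpgd stayed under it whichever array was left out.

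**Figure D1:**
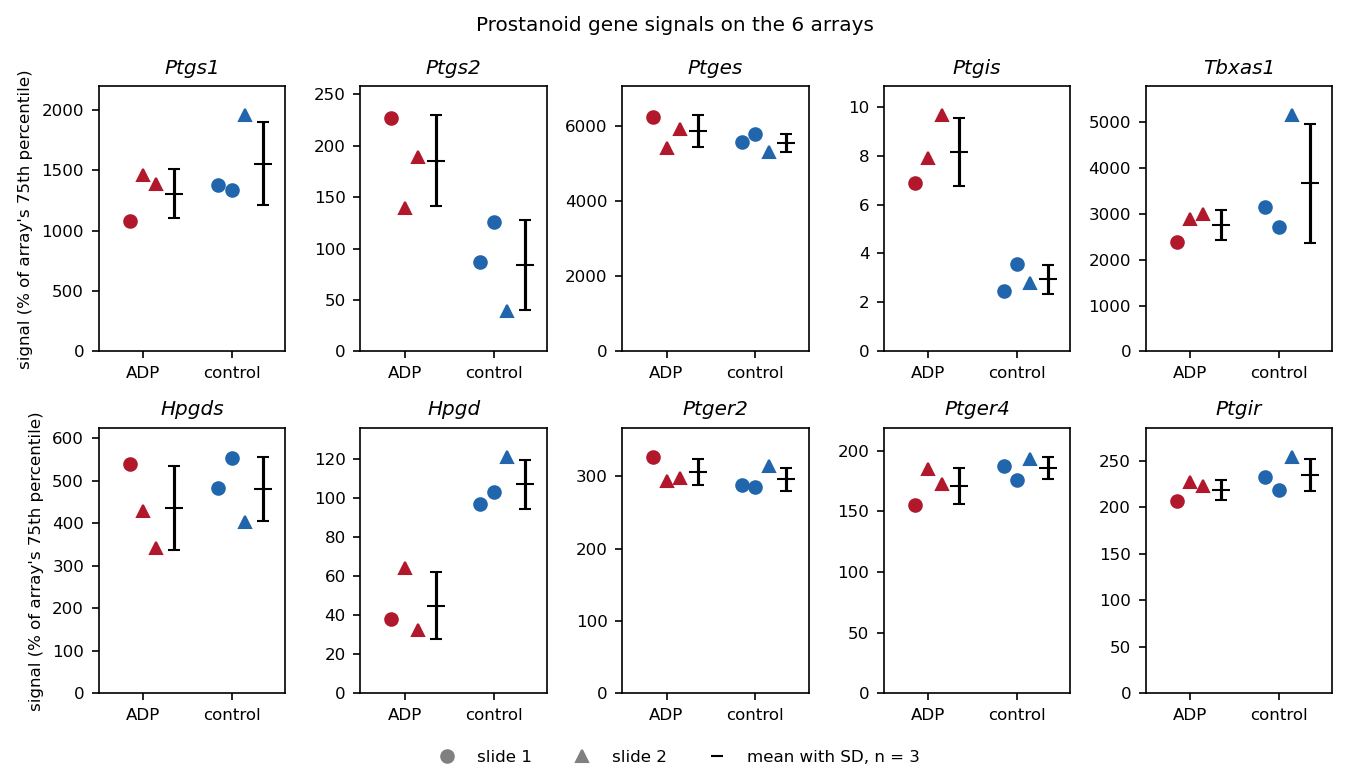
Signal of each prostanoid gene on each array, as a percentage of the array's 75th percentile on a linear axis that starts at 0, with the ADP arrays on the left and the control arrays on the right of each panel. Marker shapes give the slide, and dashes with bars give the mean and SD of each group (n = 3). Ptgs2 and Ptgis lie higher on all 3 ADP arrays than on any control array, Hpgd lies lower, and the other 7 genes overlap between groups.

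Among the cyclooxygenases, Ptgs2 was higher under ADP and Ptgs1 was not distinguishable from control without the slide block. Ptgs2 is the cyclooxygenase that cells switch on, and its probe lies on chromosome 1 (mm9 chr1:151954744-151954803, plus strand). Its signal was 227%, 139% and 189% on ADP arrays 1 to 3, against 87.2%, 126% and 39.2% on control arrays 1 to 3. Every ADP array lay above every control array, but ADP 2 was close to control 2, and control 3 was the lowest of the 6. The group means were 185% ± 44.3 for ADP and 84.2% ± 43.5 for control (SD, n = 3 each), so each group's own spread was large. The difference was 1.26 ± 0.43 (95% confidence interval 0.23 to 2.30, adjusted p = 0.319 by limma). Within slide 1 it was 1.12 and within slide 2 it was 2.05, and with the slide as a block it was 1.58 ± 0.28 (adjusted p = 0.0734 by limma). With trended and robust variances added, limma's adjusted p was 0.0211. Without control 3 the unblocked difference was 0.79.

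The 10 spots of the Ptgs2 probe give the technical spread within an array. Leaving out the spots marked as outliers, up to 2 an array, their standard deviation was 0.02 to 0.07 on the log2 scale. On control 3 the spots kept ran between 37.0% and 42.9%, below the lowest spot of any other array, which was 81.8% on control 1. The highest of the 10 spots on control 2 was 135.9%, above the lowest on ADP 2, which was 134.4%, so these 2 arrays overlap at the level of single spots.

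The start of the Ptgs2 gene is shown because cyclic AMP and inflammatory signals are known to act on Ptgs2 in part through this stretch. The window runs from 250 bases before to 30 bases after the RefSeq start (GRCm38.p6 chr1:150099781-150100060, plus strand). Capitals mark, in order, a GC box (GGGCGG), C/EBP-type matches (TTNNGNAA) and, near the end, a core of the cyclic AMP response element (TGACG, here on the opposite strand as CGTCA) that overlaps an E-box (CACGTG).
Ptgs2: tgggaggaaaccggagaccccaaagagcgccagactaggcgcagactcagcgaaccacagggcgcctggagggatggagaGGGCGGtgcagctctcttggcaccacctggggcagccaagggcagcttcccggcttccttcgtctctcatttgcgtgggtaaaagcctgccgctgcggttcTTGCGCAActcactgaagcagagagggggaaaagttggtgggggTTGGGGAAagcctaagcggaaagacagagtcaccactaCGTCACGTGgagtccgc
Each motif was searched on both strands in the windows of 9 of the genes and in all 32841 RefSeq windows. The cyclic AMP core was found in Ptgs2 alone among the 9 and in 19.9% of all windows, and the E-box likewise in Ptgs2 alone and in 6.80% of all windows. The C/EBP-type letters occur in 39.3% of all windows and the GC box in 34.7%, so these matches are common. A match is a run of letters and not a measured binding site.

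Ptgs1, the cyclooxygenase that most cells express without stimulation, was read by a probe at mm9 chr2:36107644-36107703 (plus strand). Its signal was 1078%, 1457% and 1386% on ADP arrays 1 to 3 and 1375%, 1337% and 1953% on control arrays 1 to 3. The groups overlapped, with ADP 1 the lowest and control 3 the highest array. The difference was -0.24 ± 0.20 (95% interval -0.71 to 0.23, adjusted p = 0.690 by limma). Within the slides it was -0.33 and -0.46, and with the slide as a block it was -0.40 ± 0.08 (adjusted p = 0.0748 by limma). With trended and robust variances added, limma's adjusted p was 0.0210. Without control 3 the difference was -0.07 without the block and -0.33 with it, the latter being the slide 1 value. None of the motifs named above was found in the window at its start.

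Among the terminal synthases, Ptgis alone had an unadjusted p under 0.05 by limma without the slide block. The 95% intervals of Ptges, Tbxas1 and Hpgds took in both lower and higher values there. Ptges, the inducible prostaglandin E2 synthase, was read by a probe at mm9 chr2:30744995-30745054 (minus strand). Its signal was 6252%, 5411% and 5916% on ADP arrays and 5577%, 5779% and 5313% on control arrays. The groups overlapped, and the difference was 0.07 ± 0.11 with a 95% interval of -0.18 to 0.33 (adjusted p = 0.812 by limma). A second probe, 3219 bases nearer the start of the transcript at mm9 chr2:30748214-30748273, gave 113%, 112% and 117% on ADP arrays and 93.8%, 107% and 92.4% on control arrays. On this probe every ADP array lay above every control array, with a difference of 0.23 ± 0.11 (adjusted p = 0.464 by limma). The 2 probes thus agree in sign and differ in whether the groups overlap.

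Ptgis, the prostacyclin synthase, was dim: its probe at mm9 chr2:167028696-167028755 (minus strand) was well above background on all 3 ADP arrays and on 0 of 3 control arrays. The signal was 6.88%, 7.90% and 9.64% on ADP arrays, against 2.47%, 3.59% and 2.78% on control arrays. The lowest ADP array stood well clear of the highest control array. Because the control level is only a bound, the fold is given as at least 2.15, without a test of its own. It was set on each control array against the probe's own signal or the dimmest signal of any probe well above background there, whichever was higher. Taken at face value, the measured difference was 1.47 (adjusted p = 0.260 by limma), with 1.21 and 1.65 within slides 1 and 2. In the slide-blocked fit the measured difference was 1.43 (adjusted p = 0.0734 by limma). With trended and robust variances added, limma's adjusted p was 0.0218. Its size depends on the background correction, and with normexp it was 0.40, so the bound of 2.15 holds only for the deposited background subtraction. Since the gene passed the filter through its ADP arrays, it could enter the test only as a gene well above background there.

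Tbxas1, thromboxane synthase, was read at mm9 chr6:39034356-39034415 (plus strand). Its signal was 2397%, 2881% and 3005% on ADP arrays and 3160%, 2708% and 5152% on control arrays. Control 3 was far above the other 5 arrays, and control 2 lay between the ADP arrays. The difference was -0.36 ± 0.25 (95% interval -0.96 to 0.24, adjusted p = 0.634 by limma), and within the slides it was -0.29 and -0.81. With the slide as a block it was -0.55 ± 0.14 (adjusted p = 0.101 by limma), and with trended and robust variances added the adjusted p was 0.0319. Without control 3 it was -0.09 without the block and -0.29 with it, the latter being the slide 1 value. With the block the unadjusted p was then no longer under 0.05 by limma.

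Hpgds, the haematopoietic prostaglandin D2 synthase, was read by a probe that spans 3529 genomic bases (mm9 chr6:65070081-65073609, minus strand), so it crosses at least 1 intron. Its signal was 539%, 429% and 341% on ADP arrays and 484%, 553% and 403% on control arrays. The groups overlapped throughout. The difference was -0.15 ± 0.20 (95% interval -0.64 to 0.34, adjusted p = 0.803 by limma), and its sign differed between slides, at 0.06 and -0.08. In mast cell and basophil markers, which are cells that also carry Hpgds, the summed signal of the 3 measured of 7 was 161% to 294% on ADP arrays and 43.9% to 106% on control arrays. That sum was mostly Hdc, which makes histamine. The other 2 were dim and went opposite ways: Kit, a receptor of mast cells and progenitors, was lower under ADP (-0.72 ± 0.22) and the tryptase gene Tpsb2 was higher (0.84 ± 0.38), both with groups that did not overlap. Tpsb2 gave 30.5%, 13.8% and 12.9% on ADP arrays and 10.2%, 7.22% and 12.8% on control arrays, so its groups barely parted. Its difference was 1.83 within slide 1 and 0.06 within slide 2. With normexp the differences were -0.36 for Kit and 0.40 for Tpsb2. Cpa3, Mcpt4, Fcer1a and Mcpt8 were well above background on 0 arrays.

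**Figure D2:**
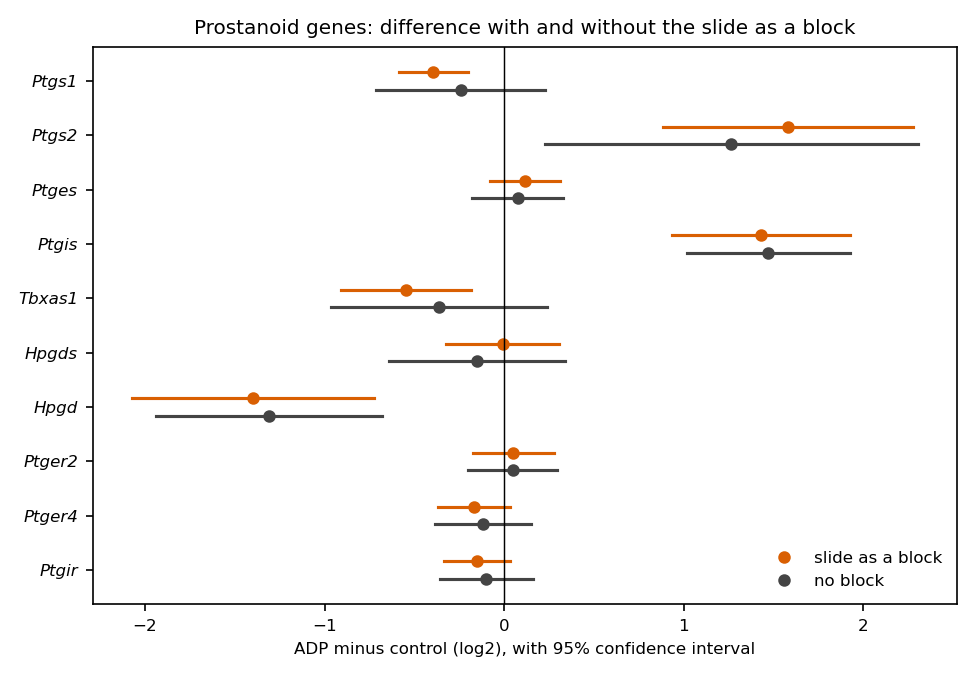
Difference in log2 signal, ADP minus control, for each prostanoid gene with its 95% confidence interval, in grey without a block and in orange with the slide as a block. Ptgs2 (1.26 and 1.58) and Ptgis (1.47 and 1.43, against a control signal not well above background) lie above 0, Hpgd (-1.31 and -1.40) lies below 0, and the intervals of Ptgs1 and Tbxas1 leave out 0 only with the slide as a block.

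On the breakdown side, Hpgd was lower under ADP on both of its probes. Hpgd encodes the enzyme that inactivates prostaglandin E2 and related prostanoids by oxidising their 15-hydroxyl group. The probe with the higher signal, at mm9 chr8:58799399-58799458 (plus strand), gave 38.1%, 64.4% and 32.4% on ADP arrays, against 96.9%, 103% and 121% on control arrays. All 3 control arrays lay close together and above every ADP array, and ADP 2 was the nearest to them. The means were 45.0% ± 17.0 for ADP and 107% ± 12.4 for control (SD, n = 3 each). The difference was -1.31 ± 0.26 (95% interval -1.94 to -0.68, adjusted p = 0.260 by limma), and it ranked 125 by p among all features. The slides gave nearly the same value, -1.39 and -1.40. With the slide as a block the difference was -1.40 ± 0.27 (adjusted p = 0.0740 by limma), and with trended and robust variances added the adjusted p was 0.0217. In bulk RNA, fewer cells of a type and less RNA per cell cannot be told apart.

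The second Hpgd probe lies 458 bases nearer the start of the transcript (mm9 chr8:58798941-58799000). It gave 22.7%, 32.9% and 15.8% on ADP arrays, against 52.4%, 48.7% and 56.7% on control arrays. Its groups also did not overlap, and the order of the ADP arrays was the same as on the first probe. The difference was -1.21 ± 0.26, or 2.31-fold lower (adjusted p = 0.265 by limma), and within the slides it was -1.16 and -1.31. Both probes read the same RNA samples, so the second is a repeat of the measurement and not of the experiment.

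The start of Hpgd is shown as the counterpart of Ptgs2 on the side of breakdown (GRCm38.p6 chr8:56294302-56294581, plus strand, from RefSeq, with the same distances from the start). Capitals mark, in order, a C/EBP-type match, a GC box (on the opposite strand as CCGCCC) and the letters TATAAA.
Hpgd: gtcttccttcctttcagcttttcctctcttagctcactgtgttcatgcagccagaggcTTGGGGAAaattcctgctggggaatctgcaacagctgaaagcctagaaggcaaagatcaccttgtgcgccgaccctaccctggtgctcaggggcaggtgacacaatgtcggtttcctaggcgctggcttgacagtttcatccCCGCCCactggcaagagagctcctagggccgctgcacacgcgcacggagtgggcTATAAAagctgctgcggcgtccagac
These last letters begin 5 bases after the RefSeq start and occur in 13.1% of all windows, and among the 9 genes they were found in Hpgd and Tbxas1. Hpgd held no cyclic AMP core and no E-box in this window. The Tbxas1 window also held an AP-1 match (TGANTCA), found in 7.46% of all windows, and no NF-kappaB match was found in any of the 9, against 7.94% of all windows. The search reached no further than 250 bases before the start, so sites beyond that were not looked for.

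**Figure D3:**
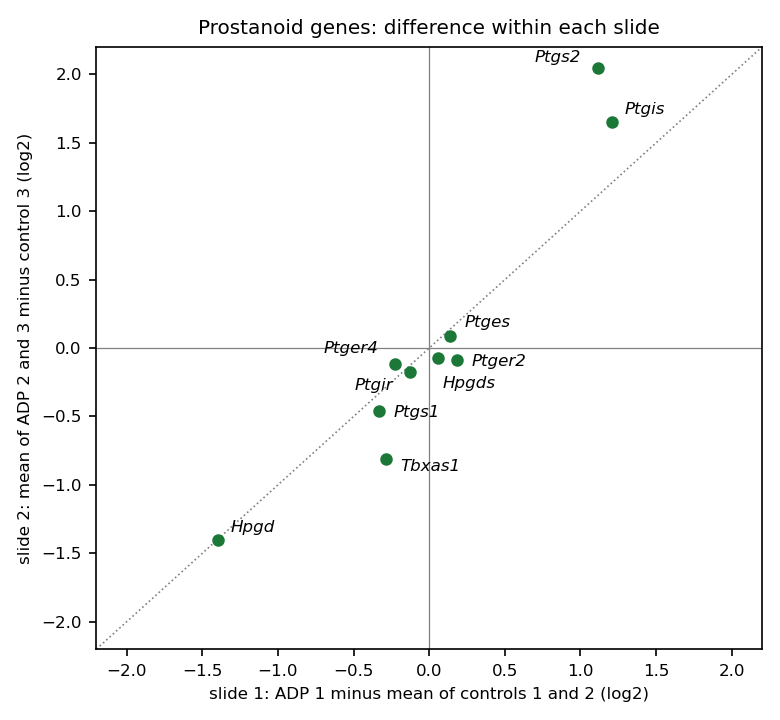
Difference in log2 signal within slide 1 (ADP 1 minus the mean of controls 1 and 2) against that within slide 2 (mean of ADP 2 and 3 minus control 3), 1 point for each prostanoid gene, with a dotted line of equal values. Ptgs2 and Ptgis are high in both slides, Hpgd is low in both at -1.39 and -1.40, and Hpgds and Ptger2 are the 2 genes whose sign differs between slides.

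For the 3 receptor genes no difference beyond the spread of the arrays was detected. Ptger2, which encodes EP2, gave 326%, 294% and 298% on ADP arrays and 288%, 285% and 313% on control arrays (mm9 chr14:45622004-45622063, plus strand). Ptger4, which encodes EP4, gave 155%, 185% and 173% on ADP arrays and 187%, 176% and 193% on control arrays (mm9 chr15:5184419-5184478, minus strand). Ptgir, the prostacyclin receptor, gave 207%, 227% and 223% on ADP arrays and 232%, 219% and 254% on control arrays (mm9 chr7:17496120-17496179, plus strand). In each of the 3 the groups overlapped and the arrays stayed within a narrow band. The difference was 0.05 ± 0.10 for Ptger2, with a 95% interval of -0.20 to 0.30 (adjusted p = 0.879 by limma). For Ptger4 it was -0.12 ± 0.11, with an interval of -0.39 to 0.15 (adjusted p = 0.731 by limma), and -0.17 ± 0.08 with the slide as a block. For Ptgir it was -0.10 ± 0.11, with an interval of -0.36 to 0.16 (adjusted p = 0.761 by limma), and -0.15 ± 0.07 with the block. These intervals bound the receptor differences more tightly than those of the enzymes Ptgs2 and Hpgd. Over the 10 genes, 8 had the same sign in both slides, as did 7 of the 9 other than Ptgis, against 62% of all features.

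Of 19 other genes of prostanoid supply, synthesis, metabolism, transport and reception, 13 were measured, 6 higher and 7 lower under ADP, and 0 passed at an adjusted p under 0.05. Their median difference was -0.03, beside 0.00 over all features. Of the 13, 1 had an unadjusted p under 0.05, against 12.7% of all features. It was the reductase gene Ptgr2, which acts on 15-keto prostaglandins downstream of Hpgd. Ptgr2 gave 261%, 266% and 255% on ADP arrays, against 339%, 279% and 368% on control arrays, a difference of -0.33 ± 0.13 (adjusted p = 0.378 by limma). Ptgr1, a related reductase, lay the other way, with 2965%, 2875% and 3098% on ADP arrays, against 2621%, 2639% and 2159% on control arrays. Neither gene's groups overlapped, and the Ptgr1 difference was 0.27 ± 0.12. In the slide-blocked fit the unadjusted p was under 0.05 for 2 higher and 3 lower genes of the 13, against 10.8% and 13.5% of all features. They were Pla2g4a (0.27), Ptgr1 (0.32), Mgll (-0.53), Prxl2b (-0.23) and Ptgr2 (-0.37). With trended and robust variances added, Ptgr1 (adjusted p = 0.0459 by limma) and Mgll (adjusted p = 0.0272 by limma) passed. That was 1 higher and 1 lower of the 13, against 4.52% and 5.38% of all features.

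On the supply side, Pla2g4a, the cytosolic phospholipase that releases arachidonic acid, differed by 0.18 ± 0.15 and Mgll, a lipase that can also feed arachidonic acid into the pathway, by -0.34 ± 0.23. The other prostaglandin E2 synthases Ptges2 and Ptges3 differed by -0.09 and 0.16. Akr1b3 and Prxl2b, both linked to prostaglandin F synthesis, differed by 0.09 and -0.11, and the carbonyl reductase Cbr1 by -0.09. The uptake carrier Slco2a1, which hands prostaglandins to the dehydrogenase inside the cell, differed by -0.54 ± 0.36, and the export pump Abcc4 by -0.03. Among other receptor genes, Ptger3, which encodes EP3, differed by 0.83 ± 0.50, with 6.40%, 6.76% and 23.6% on ADP arrays and 5.45%, 4.91% and 6.81% on control arrays, so that ADP 3 alone stood apart. Ptgfrn, a membrane protein that binds next to the prostaglandin F receptor, differed by 0.07. Ptgds, Ptger1, Ptgdr, Ptgdr2, Ptgfr and Tbxa2r did not pass the filter. Ptger1 and Tbxa2r were each well above background on 1 ADP array, and the other 4 on 0 arrays.

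EP2, EP4 and IP act through cyclic AMP, so genes known to respond to cyclic AMP were read from the same fit. Of 16 listed, 14 were measured, 10 higher and 4 lower under ADP, with a median difference of 0.62 beside 0.00 over all features, and 0 passed at an adjusted p under 0.05. At an unadjusted p under 0.05, 6 were higher, against 6.55% of all features, and 1 was lower, against 6.18%. The list was written with earlier results of these data known, so its counts and median are no independent support. Crem, a transcription factor that feeds back on cyclic AMP responses, gave 1669%, 915% and 1362% on ADP arrays, against 565%, 760% and 193% on control arrays, a difference of 1.55 ± 0.52 (adjusted p = 0.312 by limma). The groups did not overlap, and control 3 was the lowest array, as for Ptgs2. The phosphodiesterases that break cyclic AMP down were higher too, Pde3b by 1.16 ± 0.30 and Pde4d by 0.92 ± 0.30. Vegfa, a growth factor for blood vessels, was higher by 1.39 ± 0.34, the nuclear receptor gene Nr4a2 by 1.44 ± 0.55 and the AP-1 gene Fosb by 1.16 ± 0.44. Pde4d and Fosb were dim, and with normexp their differences were 0.48 and 0.70. With the same correction those of Pde3b, Vegfa and Nr4a2 were 1.14, 1.35 and 1.28. Sik1, a kinase that restrains CREB-dependent transcription, was lower by 0.29 on the log2 scale, at 40.1%, 43.4% and 39.1% on ADP arrays and 50.5%, 48.1% and 51.0% on control arrays. All 6 higher genes had their lowest signal on control 3, and without it the list's median was 0.38. In the slide-blocked fit the median was 0.74. There the unadjusted p was under 0.05 for 9 higher genes, against 10.8% of all features, and 2 lower, against 13.5%. With trended and robust variances added, 7 of the 14 passed limma's test, all higher, against 4.52% of all features higher and 5.38% lower. They were Crem, Nr4a2, Fosb, Vegfa, Pde3b, Pde4d and Dusp1, with adjusted p of 0.0210 to 0.0444 by limma. That fit called 0 features without control 1 and 97 without control 3. Whether any of these genes responded to prostanoids in the culture was not measured.

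**Figure D4:**
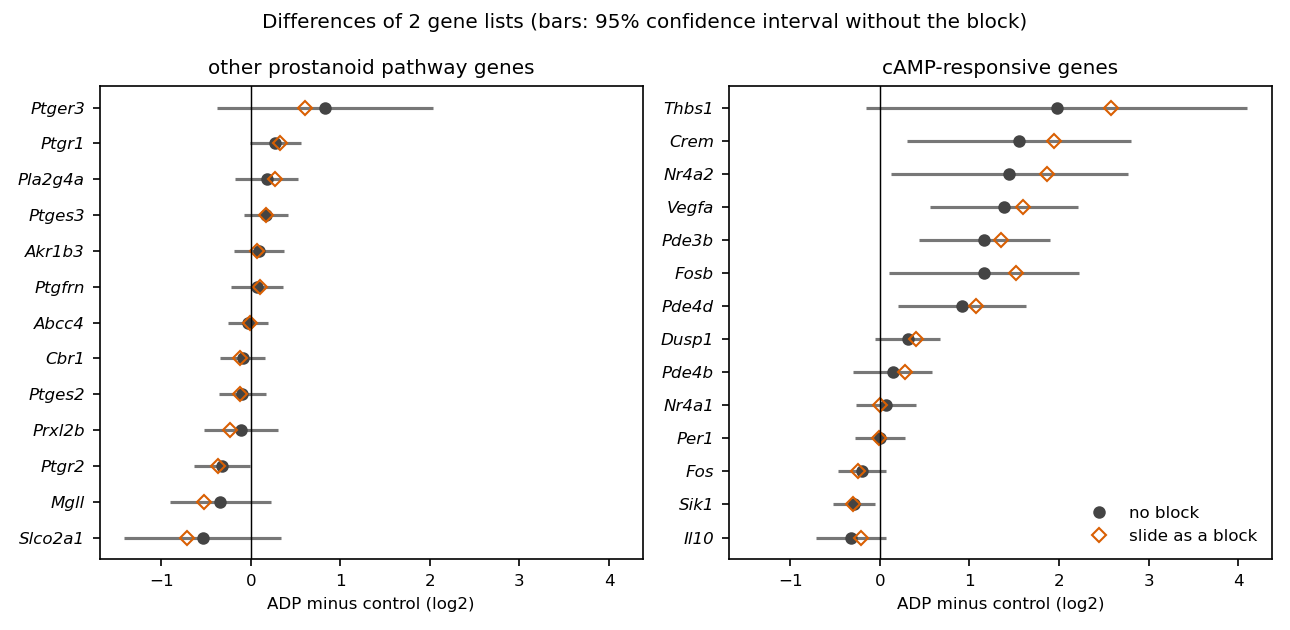
Difference in log2 signal, ADP minus control, for each measured gene of the other prostanoid pathway genes (left) and the cyclic AMP-responsive genes (right). Filled points with 95% confidence intervals are without a block and open diamonds are with the slide as a block. The other pathway genes centre on -0.03 and the cyclic AMP-responsive genes on 0.62.

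Prostanoid genes are also expressed by cells that a marrow culture could hold besides macrophages. Platelet and megakaryocyte markers, cells known for Ptgs1 and Tbxas1, had 3 of 5 measured, with summed signals of 18114% to 21021% on ADP arrays and 16307% to 18874% on control arrays. Nearly all of that sum was Pf4, which gave 18016% to 20945% on ADP arrays and 16221% to 18814% on control arrays, while Ppbp was at most 89.4% and Gp9 at most 11.2%. Fibroblast markers were measured in 5 of 5 and endothelial markers, from cells known for Ptgis, in 3 of 4. Their summed signals were 1295% to 1426% on ADP arrays and 1233% to 1363% on control arrays for fibroblasts, and 468% to 680% on ADP arrays and 408% to 539% on control arrays for endothelium. Kdr carried most of the endothelial sum, and all 3 measured endothelial markers were higher under ADP, Kdr by 0.36, Pecam1 by 0.23 and Cdh5 by 0.33. The groups of Kdr and Pecam1 overlapped, and those of Cdh5 did not. With the slide as a block Kdr differed by 0.20, Pecam1 by 0.33 and Cdh5 by 0.33. Cdh5 was dim, at 12.0%, 13.6% and 14.8% on ADP arrays and 11.7%, 11.2% and 9.38% on control arrays. Its difference was 0.07 within slide 1, 0.60 within slide 2 and 0.10 with normexp. Neutrophil, dendritic cell and lymphocyte markers had 3 of 5, 2 of 4 and 2 of 4 measured. The ranges of the summed signals overlapped between groups for every list except that of the mast cell and basophil markers. Hdc, with most of the signal there, was at 256%, 137% and 238% on ADP arrays and 75.1%, 88.0% and 12.2% on control arrays, lowest on control 3 as Ptgs2 was, and Kit, lower under ADP, was highest on control 3. No marker passed limma's test at an adjusted p under 0.05 without a block or with the slide as a block. With trended and robust variances added, Cd14, Hdc and Dcn rose and Mertk and Kit fell, with adjusted p of 0.0210 to 0.0454 by limma. In that fit 9.91% of all features passed. Their part in the prostanoid results was not tested.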

How the data were processed

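Macrophage RNA of 3 ADP and 3 control samples was read on one-colour Agilent mouse arrays. Titles gave the groups and replicate numbers, and the treatment labels gave the same groups. Per the file headers, the authors deposited spot intensity from Agilent Feature Extraction 10.7.1.1, also named in the submitters' processing notes, with background subtracted within the array and no scaling between arrays. Flags for spots well above background and for outliers were the deposited ones. A deposited value table held the same intensity, within 0.001 log2 for 100% of 55681 probes on each array, and its column medians were 20.7, 21.9 and 22.7 for ADP 1 to 3 and 18.7, 20.3 and 22.0 for controls 1 to 3.

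Control spots were left out, and outlier spots were left out unless all spots of the probe were flagged. Spots of a probe were averaged, and the log2 signal was taken relative to each array's 75th percentile. Probes had to be well above background on every array of 1 group or both, and 26586 probes and 19574 features stayed, each gene standing as its probe with the highest mean. Names were updated through a RefSeq table of GRCm38.p6: 26582 probes by accession, 2602 by symbol and 492 by synonym, while 26005 kept the name in the file. Probe coordinates are those of the files, on mm9, and no exon or UTR was assigned. Promoter windows are from RefSeq, GRCm38.p6, and 9 of the 10 genes had one.

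The test was limma's (version 3.58.1, functions lmFit and eBayes, R 4.3.3), two-sided and with no block, Benjamini-Hochberg adjusted over all features at a threshold of 0.05. An exact permutation of 3 against 3 arrays cannot go below p = 0.1. The genes named are the 10 members, the measured genes of the other pathway list, the cyclic AMP-responsive genes with an unadjusted p under 0.05 and the features most like Ptgis and Hpgd. The members, lists and alternatives were chosen with earlier results of these data known. The alternatives were the slide or the replicate number as a block, trended and robust variances, normexp with an offset of 50, quantile or median scaling, the unscaled value table, other filters and leaving out each array. Leaving out arrays in the fit with both the slide block and robust variances was chosen after seeing the data. Same-numbered arrays had correlations of -0.40 to 0.43 in their deviations from the group means. Over all pairs of an ADP and a control array, these were 0.42 to 0.47 on the same slide and -0.60 to -0.27 across slides, whatever the numbers. The values follow the slide, so they cannot show whether same-numbered samples are paired, and the numbers were not taken to pair them.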

Additional observations from a re-analysis of the deposited data

How the results depend on the processing

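Ptgs2, Ptgis, Hpgd, Ptgs1 and Tbxas1 kept their sign under every alternative run: 0.79 to 2.05 for Ptgs2, 0.40 to 1.65 for Ptgis, -1.61 to -1.11 for Hpgd, -0.46 to -0.07 for Ptgs1 and -0.81 to -0.09 for Tbxas1. On all 6 arrays they passed adjustment only with the slide as a block with trended and robust variances (limma, 1939 features and 5 prostanoid genes called), at -0.40 for Ptgs1, 1.58 for Ptgs2, 1.43 for Ptgis, -0.55 for Tbxas1, -1.40 for Hpgd and -1.24 for its second probe. Leaving out 1 array in any of the 3 fits so tried (no block, slide block, slide block with trended and robust variances, the last chosen after seeing the data) gave 0 to 1890 features and 0 to 4 prostanoid genes called. The differences then ran from -0.46 to -0.065 for Ptgs1, 0.79 to 2.05 for Ptgs2, 1.21 to 1.65 for Ptgis, -0.81 to -0.090 for Tbxas1, -1.61 to -1.11 for Hpgd and -1.47 to -0.94 for its second probe. With the slide as a block, leaving out control 3 gave the slide 1 difference alone. Leaving out ADP 1 likewise gave that of slide 2 alone, so these runs repeat the within-slide values. In the fit that made calls, 97 features were called without control 3, 547 without ADP 3 and 0 without control 1. Small differences turned sign. Hpgds was 0.027 with the slide block and quantile scaling, 0.060 within slide 1, and -0.32 to 0.073 leaving out 1 array. Ptger2 was -0.085 within slide 2 and -0.085 to 0.19 leaving out 1 array. The median of the other pathway genes was 0.022 with normexp, 0.046 in the unscaled value table, 0.019 with the slide block and quantile scaling, and -0.056 to 0.016 leaving out 1 array. The cyclic AMP-responsive median was 0.38 with normexp, 1.10 within slide 2, and 0.38 to 1.10 leaving out 1 array. The cause was not tested. With the replicate number as a block, limma called 0 features, the smallest adjusted p was 0.374, and no call on a prostanoid gene changed. The count at an unadjusted p under 0.05 ran between 1163 (no block, without ADP 3) and 5428 over all alternatives. The value table's split was 1228 higher and 326 lower, with the median of all features at 0.08. A filter on all 6 arrays left no value for Ptgis, whose control signal was well above background on 0 arrays.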

Other observations

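Over the 6 arrays, the features whose level was most like Ptgis were Snf8 (Pearson r = 0.992), Ap5s1 (0.990) and Sgtb (0.989), and 612 of the other 19573 features had an r over 0.9. Those most like Hpgd were Tnni3 (0.996), the tissue factor gene F3 (0.995) and Ifi203 (0.995), with 675 of 19573 over 0.9. The arrays share slides and groups, and with 6 points so many features reach such values that they describe these arrays alone.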
